A study of Mus musculus with 33 samples.

Results

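Mitochondrial ribosomal protein genes were followed in interscapular brown fat, the heat-producing depot between the shoulder blades, of C57BL/6J mice. Members were the genes whose probe symbol starts with Mrpl (large subunit) or Mrps (small subunit), each read from its brightest probe, which had to reach a detection p-value below 0.01 on 3 or more of the 33 arrays. Of 76 such genes with a probe, 72 passed (45 large-subunit and 27 small-subunit genes, among 9630 genes tested in all), and 71 of the 72 were detected on all 33 arrays. Mrpl19, Mrpl32, Mrpl45 and Mrps14 were detected on 0 arrays and have no values here, and Mrpl41 and Mrps36 were not analysed here. The high-fat groups ate an AIN-76 diet with 39.2 kcal% fat (20% fat and 1% cholesterol) and were taken at weeks 2, 4, 8, 20 and 24. The normal diet groups ate the AIN-76 diet and were taken at weeks 0, 2, 4, 8, 20 and 24. All mice were housed singly at 24 °C with a 12-hour light cycle, and the labels give an age of 7 weeks for every sample. Each of the 11 groups had 3 Illumina bead arrays, which report a transcript as the brightness of a probe, given here as a normalized log2 signal. The labels do not say whether the 3 samples of a group are different animals, and the p-values then describe only how these samples spread, which may be technical.

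The mitochondrial ribosome sits in the matrix and makes the few respiratory chain proteins that mitochondrial DNA encodes. Its RNAs are mitochondrial, whereas all its proteins are made from nuclear genes and imported, so building it needs transcripts of both genomes. Brown fat has a dense mitochondrial network that burns fuel for heat, and this ribosome supplies subunits of the chain that pumps the protons. Some of its proteins have counterparts in the bacterial ribosome and others are found in mitochondria only. In human ribosomes the proteins of MRPS18A and MRPS30 sit in the large subunit despite their names, and here both genes are counted by symbol.

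Promoter windows from RefSeq (build GRCm38.p6, from 250 bases before to 50 after a gene's start) were found for 64 of the 72 members. They are printed for 7 members whose signals the results turn on, either for their difference at week 24 or for their difference with diet. The motifs searched, on both strands, were CCGGAAG (the core bound by ETS factors such as Gabpa), AAGATGG (Yy1), GCGCATG (a site bound by one Nrf1 subunit), CACGTG (the E-box of Myc and Max) and TGACCTT (a site of estrogen-related receptors). Capitals mark every match on either strand, and each window reads 5′ to 3′ along the strand of its gene.
Mrps18c, chr5:100798509-100798808, + strand: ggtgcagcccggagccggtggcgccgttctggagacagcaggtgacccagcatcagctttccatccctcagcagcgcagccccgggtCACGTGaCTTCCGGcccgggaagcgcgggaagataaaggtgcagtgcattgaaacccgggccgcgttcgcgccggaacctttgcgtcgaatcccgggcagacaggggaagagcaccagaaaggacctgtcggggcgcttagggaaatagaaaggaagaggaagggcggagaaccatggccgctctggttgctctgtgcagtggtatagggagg
Mrpl2, chr17:46645971-46646270, + strand: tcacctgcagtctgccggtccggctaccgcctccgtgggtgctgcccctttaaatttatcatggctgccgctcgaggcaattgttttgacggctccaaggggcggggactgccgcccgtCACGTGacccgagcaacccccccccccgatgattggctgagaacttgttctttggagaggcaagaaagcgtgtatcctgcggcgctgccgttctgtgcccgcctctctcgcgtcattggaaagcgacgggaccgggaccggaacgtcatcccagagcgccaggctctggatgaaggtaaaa
Mrps22, chr9:98601630-98601929, - strand: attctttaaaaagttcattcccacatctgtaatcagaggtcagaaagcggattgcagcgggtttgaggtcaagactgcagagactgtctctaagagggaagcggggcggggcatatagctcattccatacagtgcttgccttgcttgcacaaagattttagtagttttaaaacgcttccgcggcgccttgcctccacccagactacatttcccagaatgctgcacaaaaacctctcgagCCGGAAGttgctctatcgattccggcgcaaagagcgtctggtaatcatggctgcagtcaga
Mrps21, chr3:95871465-95871764, - strand: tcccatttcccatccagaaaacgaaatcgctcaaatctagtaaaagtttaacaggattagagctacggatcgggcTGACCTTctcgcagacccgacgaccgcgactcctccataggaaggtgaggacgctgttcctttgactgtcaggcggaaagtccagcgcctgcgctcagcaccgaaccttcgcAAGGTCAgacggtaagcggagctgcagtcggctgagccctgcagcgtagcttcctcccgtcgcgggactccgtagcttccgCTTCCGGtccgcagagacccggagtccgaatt
Mrpl53, chr6:83108858-83109157, + strand: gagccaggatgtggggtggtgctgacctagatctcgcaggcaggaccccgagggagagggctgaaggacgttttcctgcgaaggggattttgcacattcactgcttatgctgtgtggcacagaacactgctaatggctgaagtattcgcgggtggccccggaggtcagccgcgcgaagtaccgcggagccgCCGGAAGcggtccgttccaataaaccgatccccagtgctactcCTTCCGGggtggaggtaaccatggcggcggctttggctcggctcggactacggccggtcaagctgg
Mrpl37, chr4:107066817-107067116, - strand: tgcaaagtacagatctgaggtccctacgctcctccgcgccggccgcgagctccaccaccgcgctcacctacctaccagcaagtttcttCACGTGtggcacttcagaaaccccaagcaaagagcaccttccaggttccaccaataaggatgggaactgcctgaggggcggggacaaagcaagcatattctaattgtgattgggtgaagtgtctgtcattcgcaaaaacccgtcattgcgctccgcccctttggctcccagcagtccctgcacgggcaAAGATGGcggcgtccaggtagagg
Mrpl10, chr11:97041332-97041631, + strand: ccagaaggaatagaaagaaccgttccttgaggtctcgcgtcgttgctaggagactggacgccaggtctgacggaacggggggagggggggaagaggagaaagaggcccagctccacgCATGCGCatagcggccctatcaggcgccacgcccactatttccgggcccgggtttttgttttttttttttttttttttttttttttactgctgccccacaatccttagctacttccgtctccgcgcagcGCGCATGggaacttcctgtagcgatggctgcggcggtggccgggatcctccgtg
The ETS core was in the windows of Mrps18c, Mrps22, Mrps21 and Mrpl53, the last with 2 matches. An E-box was also in the windows of Mrps18c, Mrpl2 and Mrpl37. Mrps21 had 2 receptor sites, Mrpl37 had a Yy1 match and Mrpl10 had 2 Nrf1 sites. The ETS core was found in 26 of 64 members (40.6%), against 20.4% of the 7833 tested genes with a window and 9.93% of all 27025 genes with one. The Yy1 motif was in 12 members (18.8%, against 8.78% of tested genes) and the Nrf1 motif in 7 (10.9%, against 8.03%). The E-box was in 5 members (7.81%, against 11.8%) and the receptor site in 4 (6.25%, against 4.05%). Median base composition was 58.9% G and C in member windows and 60.7% in those of tested genes. A match describes letters only.

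Between 29.5% and 33.7% of probes passed detection on an array, at median signals of 129 to 183, and precision is limited by having 3 arrays a group. The arrays of week 24 stood apart in both diets. On the first principal component, with 35.9% of the variance, high-fat arrays of week 24 averaged 46.2 ± 0.873 and normal diet arrays of week 24 averaged 34.4 ± 1.56 (SD, n = 3 each), against group means of -15.1 to 2.68 elsewhere. A further array stood apart in the member genes, replicate 1 of the high-fat group at week 8. There 62 of 72 members were below both other arrays of that group and 9 above both, against 40.2% and 42.5% of all genes, and the median member was -0.37 log2 units from the mean of the other 2 arrays. The mean log2 signal of 18 tricarboxylic acid cycle genes was 13.46 on that array, against 13.19 and 13.22. Results that rest on it are given with and without it. The tissue label was checked on 14 brown adipocyte markers, among them Ucp1, the uncoupling protein that releases heat, whose mean log2 signal lay between 11.72 and 12.08 on every array. In bulk tissue, fewer cells of a type and less RNA per cell cannot be told apart.

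The level of each subunit as a whole is given first, after quantile normalization and with no test. With normal diet week 0 set to 0, the mean of the 45 large-subunit genes was -0.07 ± 0.021, -0.05 ± 0.013, -0.18 ± 0.21, -0.02 ± 0.071 and -0.07 ± 0.041 log2 units in the high-fat groups of weeks 2, 4, 8, 20 and 24. It was -0.05 ± 0.018, -0.02 ± 0.039, -0.04 ± 0.019, -0.02 ± 0.030 and 0.11 ± 0.0018 in the normal diet groups of the same weeks (SD, n = 3 each). For the 27 small-subunit genes the high-fat means were -0.07, -0.06, -0.22, -0.09 and -0.09, and the normal diet means -0.05, -0.02, -0.08, -0.07 and 0.07. At week 24 the large-subunit mean was -0.06, -0.11 and -0.03 on the high-fat arrays, against 0.11, 0.11 and 0.11 on the normal diet arrays. The small-subunit mean was -0.07, -0.13 and -0.06 on the high-fat arrays, against 0.09, 0.04 and 0.08 on the normal diet arrays, and neither subunit's arrays overlapped between diets. The scaling moves such levels: over all 72 members the median change by week 24 of high-fat diet from week 2 was 0.04 with quantile normalization and 0.41 with arrays aligned by their medians, where all genes moved by 0.31. From week 0 to week 24 of normal diet it was 0.13 and 0.25, where all genes moved by -0.0076 with median alignment. The diet difference of the median member with median alignment was -0.57 at week 8 and -0.12 at week 24, or -0.22 and -0.21 relative to all genes. Without replicate 1 of the high-fat group at week 8, the week 8 value was -0.55, or -0.07 relative to all genes.

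**Figure D1:**
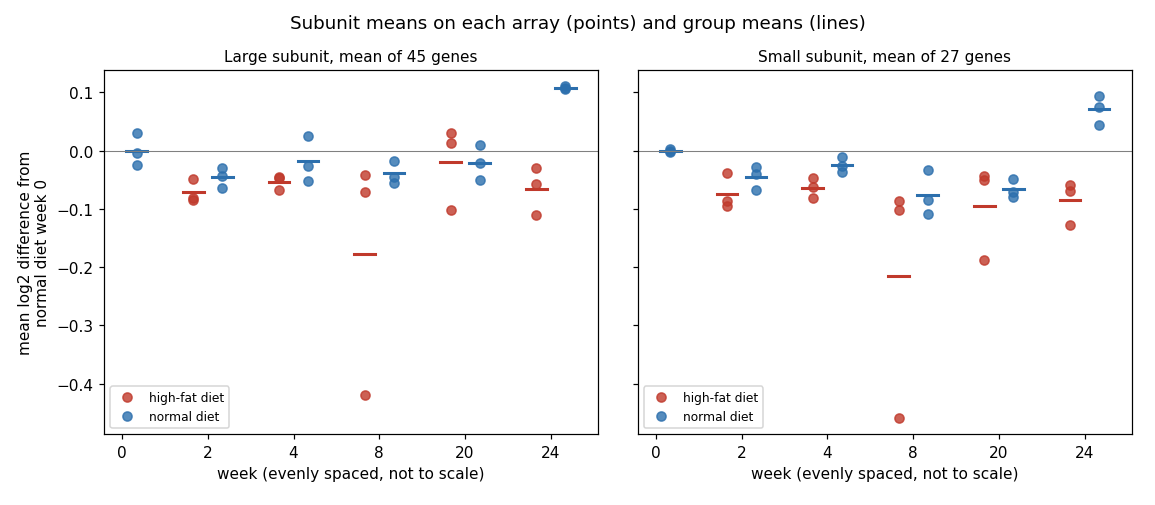
Mean log2 difference from normal diet week 0 over the large-subunit genes and over the small-subunit genes on each array (points, high-fat and normal diet in separate colours; weeks evenly spaced). Replicate 1 of the high-fat group at week 8 lies at -0.42 and -0.46, and at week 24 all 3 high-fat arrays lie below all 3 normal diet arrays for both subunits.

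**Figure D2:**
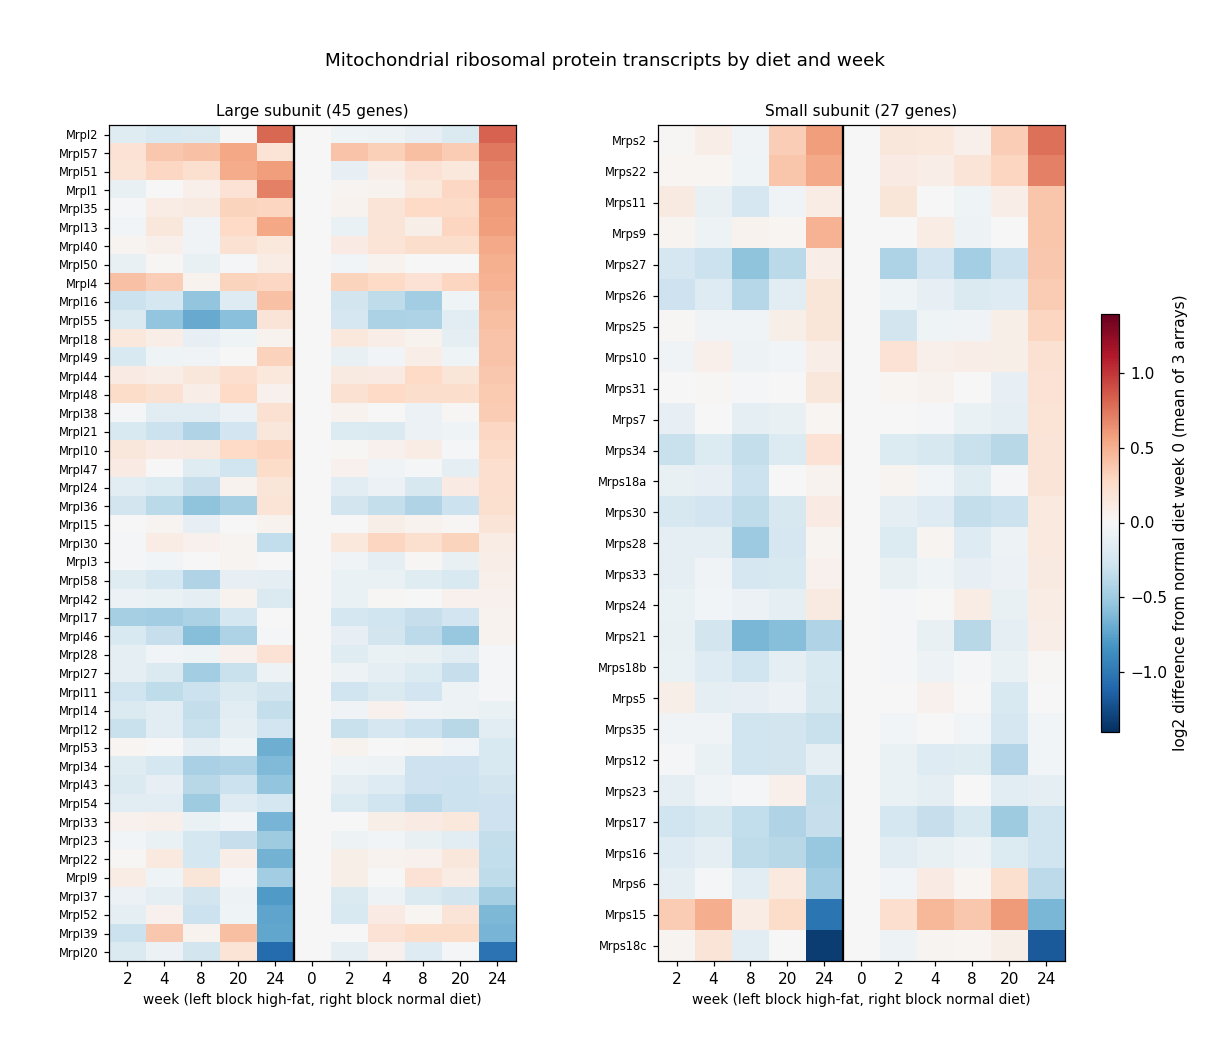
Mean log2 signal of each member in each diet-by-week group minus its mean at normal diet week 0 (colour, 3 arrays per group), with the high-fat weeks in the left block. At week 24 of normal diet Mrps18c lies at -1.18 and Mrpl2 at 0.83.

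With each of the 5 weeks weighted equally, 3 members were higher and 13 lower on high-fat diet (limma, Benjamini-Hochberg adjusted p under 0.05 over all genes). These are 4.17% and 18.1% of the members, against 15.4% of all genes higher and 11.7% lower. The differences were small: 61 members were lower and 11 higher, with a median of -0.08 log2 units beside 0.0024 for all genes. Without replicate 1 of the high-fat group at week 8 the members' median was -0.06. At an unadjusted p under 0.05, 3 were higher and 30 lower, beside 20.8% and 17.5% of all genes. The large subunit gave 3 of 45 higher and 8 lower, and the small subunit 5 of 27 lower.

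Mrps21, a small-subunit protein with a bacterial counterpart, fell most. Its log2 signals on high-fat diet were 12.12, 12.14 and 12.37 at week 2, 12.22, 12.07 and 11.86 at week 4, 11.23, 11.89 and 11.88 at week 8, 11.86, 11.55 and 11.74 at week 20 and 11.88, 11.76 and 12.01 at week 24. On normal diet they were 12.35, 12.18 and 12.36 at week 2, 12.08, 12.28 and 12.25 at week 4, 12.03, 12.12 and 11.62 at week 8, 12.31, 12.07 and 12.15 at week 20 and 12.58, 12.55 and 12.09 at week 24. The diets overlapped at weeks 2, 4 and 8, and every high-fat array was lower at weeks 20 and 24. The mean difference was -0.30 (SE 0.070, adjusted p = 0.00232) by limma.

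Mrpl30, a large-subunit protein with a bacterial counterpart, had log2 signals on high-fat diet of 12.43, 12.50 and 12.49 at week 2, 12.59, 12.69 and 12.52 at week 4, 12.27, 12.57 and 12.85 at week 8, 12.51, 12.46 and 12.64 at week 20 and 12.14, 12.11 and 12.21 at week 24. On normal diet they were 12.66, 12.66 and 12.61 at week 2, 12.81, 12.82 and 12.79 at week 4, 12.82, 12.69 and 12.66 at week 8, 12.75, 12.94 and 12.73 at week 20 and 12.64, 12.73 and 12.44 at week 24. Every high-fat array was lower at weeks 2, 4, 20 and 24, and the diets overlapped at week 8. The mean difference was -0.25 (SE 0.044, adjusted p = 0.000129) by limma.

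Of the other large-subunit members that fell, Mrpl34 differed by -0.20 (SE 0.064), Mrpl55, found in mitochondria only, by -0.20 (SE 0.063), and Mrpl14, which binds an assembly factor in human cells, by -0.19 (SE 0.062). Mrpl40 differed by -0.18 (SE 0.053) and Mrpl21 by -0.16 (SE 0.050). In the small subunit Mrps16, which has a bacterial counterpart, differed by -0.16 (SE 0.052) and Mrps18b, one of the Mrps18 paralogs, by -0.14 (SE 0.036). The remaining 4 were Mrps26 at -0.13, Mrps10 at -0.13, Mrpl17 at -0.11 and Mrpl38 at -0.11. Without replicate 1 of the high-fat group at week 8, 3 members were higher and 13 lower, and 15 of those 16 were calls of the full set. Of all genes 15.9% were then higher and 12.7% lower. The differences without that array were -0.25 for Mrps21, -0.22 for Mrpl30, -0.15 for Mrpl34, -0.16 for Mrpl55 and -0.13 for Mrpl14. They were -0.14 for Mrpl40, -0.13 for Mrpl21, -0.12 for Mrps16 and -0.12 for Mrps18b. Without replicate 2 of that group, 3 members were higher and 22 lower, beside 16.8% and 13.3% of all genes.

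All 3 members that rose belong to the large subunit. Mrpl10, the protein that anchors the stalk where translation factors dock, had log2 signals on high-fat diet of 12.97, 12.94 and 12.86 at week 2, 12.85, 12.84 and 12.92 at week 4, 12.90, 12.90 and 12.84 at week 8, 12.99, 12.99 and 13.13 at week 20 and 13.10, 13.03 and 13.03 at week 24. On normal diet they were 12.65, 12.85 and 12.81 at week 2, 12.74, 12.85 and 12.86 at week 4, 12.88, 12.83 and 12.88 at week 8, 12.70, 12.80 and 12.72 at week 20 and 12.95, 13.06 and 13.06 at week 24. Every high-fat array was higher at weeks 2 and 20, and the diets overlapped at the other weeks. The mean difference was 0.11 (SE 0.030, adjusted p = 0.00726) by limma, and a second Mrpl10 probe gave 0.13. Mrpl28 rose by 0.11 (SE 0.037, adjusted p = 0.024) and Mrpl51, found in mitochondria only, by 0.16 (SE 0.049, adjusted p = 0.0176) in the same limma fit. Other probes of Mrpl51, detected on 10 and 21 arrays, gave -0.03 and -0.06.

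The split depended on the scaling. When arrays were aligned by their medians in place of quantile normalization, 0 members rose and 58 fell over the 5 weeks in limma, against 7.95% of all genes higher and 25.6% lower, and Mrpl28 and Mrpl10 came to -0.04 and -0.04. That alignment moved the median of all genes to -0.35 at week 8 and to 0.10 at week 24. Over the 5 weeks the members' median minus that of all genes was -0.13 with median alignment and -0.08 with quantile normalization. Without the week 24 arrays 2 members were higher (Mrpl10 and Mrpl51) and 2 lower (Mrpl30 and Mrps21), against 8.39% and 6.87% of all genes. The sign was the same at all 5 weeks in 19 members, 17 lower each time, among them Mrpl30, Mrps21, Mrps16 and Mrps18b, and 2 higher, Mrpl10 and Mrpl28. Of all genes 11.1% were lower and 11.5% higher at all 5 weeks. At week 8, 68 of 72 members were lower with replicate 1 of the high-fat group and 39 without it. The counts of members with 1 sign at all 5 weeks are given only with that array.

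Members with well known roles that did not pass over the 5 weeks included Mrpl12, a stalk protein, at 0.05 (SE 0.039), and Mrps12, of the decoding centre, at 0.02 (SE 0.050). Mrpl44, which resembles a double-strand RNA nuclease, stood at -0.06 (SE 0.046), Mrps22, found in mitochondria only, at -0.10 (SE 0.042) and Mrps34, also mitochondria-only, at 0.02 (SE 0.044). Mrpl3 stood at 0.03, Mrpl11 at -0.11, Mrps5 at -0.06, Mrps7 at -0.06, Mrps18a at -0.10 and Mrps18c at -0.03. With median alignment Mrpl12 and Mrps34 came to -0.12 and -0.13.

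**Figure D3:**
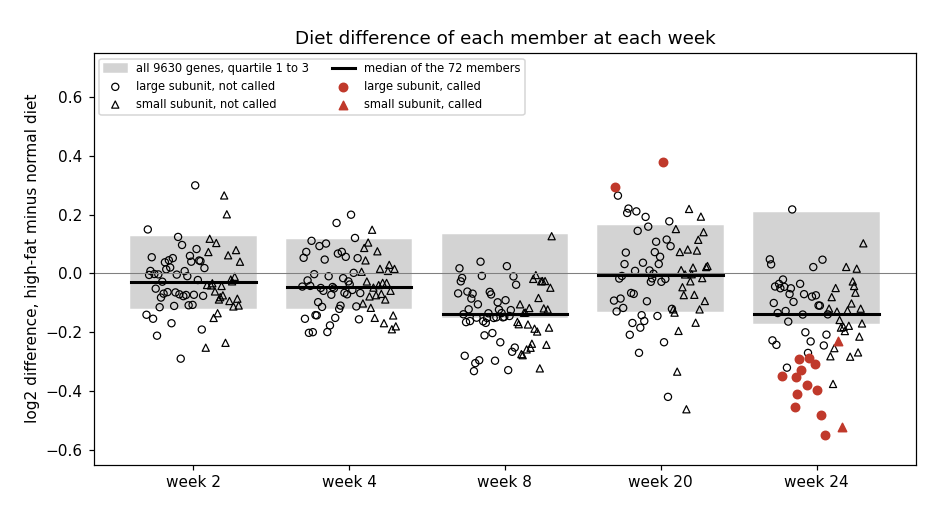
Log2 difference, high-fat minus normal diet, of each of the 72 members at each week (points, red where the adjusted p was under 0.05), with the members' median and the quartiles of all genes. The members' median lies at -0.14 at weeks 8 and 24, and the 14 called members of week 24 all lie below 0.

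Within the first 3 diet weeks no member passed. In limma 0 of 72 were called at week 2 (1.13% of all genes higher and 0.768% lower), at week 4 (0.727% and 0.467%) and at week 8 (0.924% and 1.17%). At an unadjusted p under 0.05 there were 6 members at week 2, 1 at week 4 and 10 at week 8, beside 14.4%, 12.6% and 17.5% of all genes. At week 8 the median member differed by -0.14 and 68 of 72 were lower, whereas without replicate 1 of the high-fat group the median was -0.01 and 39 were lower. Leaving out replicate 2 of that group gave 1 lower call at week 8 and leaving out replicate 3 gave 2, beside 2.75% and 2.12% of all genes lower. With median alignment 70 members were called lower at week 8, beside 49.3% of all genes.

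At week 20, 2 members rose and 0 fell, against 3.04% of all genes higher and 1.62% lower, with 6 higher and 4 lower at an unadjusted p under 0.05 (11.8% and 8.18% of all genes). Mrpl10 differed by 0.30 (SE 0.066, adjusted p = 0.00967) in limma. Every high-fat array was above every normal diet array, which was a condition for choosing members at a single week. Mrpl51 stood at 8.06, 8.22 and 8.24 on high-fat diet against 7.58, 7.70 and 8.10 on normal diet, which overlap, and differed by 0.38 (SE 0.11, adjusted p = 0.0456). Without replicate 1 of normal diet, or without replicate 3 of high-fat diet, 0 members passed at week 20, beside 1.29% and 1.61% of all genes higher. Without replicate 2 of normal or of high-fat diet 1 member passed, and it was higher, beside 1.93% and 2.85%. With median alignment 0 were higher and 3 lower, beside 0.498% and 3.24% of all genes.

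At week 24 all called members were lower on high-fat diet. Of the 72 members 14 fell and 0 rose in limma, or 19.4% and 0%, against 7.64% of all genes lower and 12.7% higher. At an unadjusted p under 0.05, 22 were lower and 1 higher, beside 13.6% and 18.5% of all genes. The median member differed by -0.14, beside 0.0072 for all genes, and 64 members were lower. All 3 high-fat arrays lay below all 3 normal diet arrays in 28 members and above them in 0, against 17% and 20.6% of all genes. The large subunit gave 12 of 45 calls and the small subunit 2 of 27, and the difference between subunits was not tested. Their medians were -0.14 and -0.16.

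Mrpl57, a large-subunit protein found in mitochondria only, had log2 signals of 6.71, 7.10 and 7.16 on high-fat diet against 7.60, 7.74 and 7.29 on normal diet, and differed by -0.55 (SE 0.19, adjusted p = 0.036). Mrps21 stood at 11.88, 11.76 and 12.01 on high-fat diet against 12.58, 12.55 and 12.09 on normal diet, and differed by -0.52 (SE 0.16, adjusted p = 0.0173). Mrpl53, a mitochondria-only protein of the large subunit, stood at 12.26, 12.17 and 12.28 on high-fat diet against 12.97, 12.73 and 12.46 on normal diet, and differed by -0.48 (SE 0.13, adjusted p = 0.00807). In each of these 3 genes the groups did not overlap, which was a condition for choosing members at a single week. Replicate 3 of normal diet was in each the normal diet array nearest to the high-fat arrays. The others that fell were Mrpl30 (-0.45), Mrpl34 (-0.41), Mrpl50 (-0.39), Mrpl40 (-0.38), Mrpl33 (-0.35), Mrpl18 (-0.35), Mrpl37 (-0.33), Mrpl48 (-0.31), Mrpl35 (-0.29), Mrpl43 (-0.29) and Mrps18b (-0.23). Only in Mrpl33 did the arrays of the diets overlap among these 14. The calls were made on the same arrays, so this separation adds no support of its own. The ETS core was in the promoter windows of 9 of the 14, beside 40.6% of all members with a window and 20.4% of tested genes. It was in 7 of the 12 with a window that fell over the 5 weeks, and, for week 24 against the start, in 5 of 11 lower and 4 of 13 higher in both diets.

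**Figure D4:**
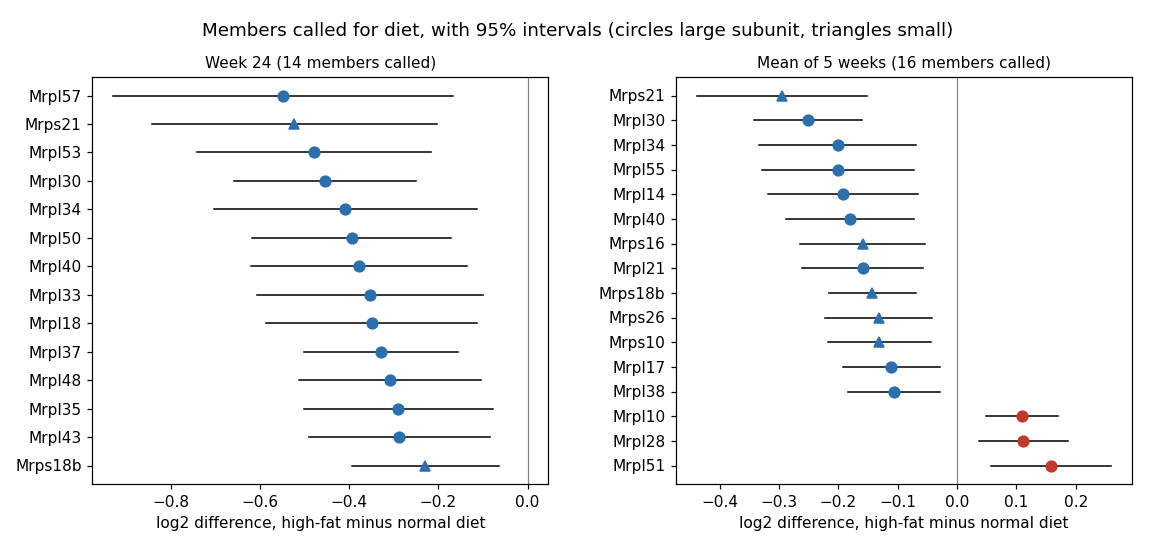
Log2 difference, high-fat minus normal diet, with its 95% interval for the members called at week 24 and for those called over the mean of 5 weeks. At week 24 the differences run from -0.55 for Mrpl57 to -0.23 for Mrps18b, and over the 5 weeks from -0.30 for Mrps21 to 0.16 for Mrpl51.

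The week 24 count moved with single arrays, as did the share of all genes lower, 7.64% with all arrays. The count was 7 without replicate 1, 3 without replicate 2 and 9 without replicate 3 of high-fat diet, beside 5.43%, 4.72% and 5.45%. It was 3 without replicate 1 and 3 without replicate 2 of normal diet, beside 4.38% and 4.6%. In each case 0 members were higher, beside 8.75% to 10.1% of all genes. Without replicate 3 of normal diet the count was 13. Mrpl57 and Mrps21 missed the threshold without replicate 1 or without replicate 2 of normal diet, and without replicate 2 of high-fat diet. Mrpl57 also missed it without replicate 1 of high-fat diet, and Mrpl53 without replicate 1 of normal diet. With median alignment 8 fell and 0 rose, beside 3.72% of all genes lower and 16% higher. Of those 8, 7 were also called with quantile normalization.

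Markers of other cell types moved at the same week, and their part in the member differences was not tested. Of the macrophage markers 16 of 17 measured (23 listed) rose, with a mean log2 signal of 9.19 to 9.30 on high-fat arrays against 7.54 to 7.78 on normal diet arrays. Of the white adipocyte markers 7 of 8 measured (15 listed) rose, at 9.01 to 9.11 against 7.99 to 8.29. Of the fibroblast and matrix markers 13 of 14 rose, at 9.63 to 9.85 against 8.84 to 9.01, and of the endothelial markers 11 of 17, at 10.10 to 10.18 against 9.65 to 9.77. Brown adipocyte markers averaged 11.72 to 11.83 on high-fat arrays against 11.73 to 11.77 on normal diet arrays. With the macrophage mean as a covariate 0 members passed at week 24, where 0.0104% of all genes were then called higher and 0% lower. Over the 5 weeks 0 passed with it, beside 1.28% of all genes higher and 0.696% lower. The members' median was -0.15 at week 24 with that covariate and -0.14 without it, and over the 5 weeks -0.10 with it and -0.08 without it.

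The diet difference itself varied over the weeks in 1 member, Mrpl37 (limma F test, adjusted p = 0.0334), which is 1.39% of members against 6.41% of all genes. Mrpl37, a large-subunit protein found in mitochondria only, had log2 signals on high-fat diet of 12.62, 12.59 and 12.34 at week 2, 12.51, 12.46 and 12.44 at week 4, 12.11, 12.42 and 12.47 at week 8, 12.48, 12.52 and 12.58 at week 20 and 11.78, 11.73 and 11.90 at week 24. On normal diet they were 12.39, 12.34 and 12.45 at week 2, 12.50, 12.53 and 12.54 at week 4, 12.34, 12.41 and 12.44 at week 8, 12.35, 12.34 and 12.31 at week 20 and 12.21, 12.13 and 12.07 at week 24. Every high-fat array was above every normal diet array at week 20 and below every one at week 24. The differences at weeks 2, 4, 8, 20 and 24 were 0.12, -0.05, -0.06, 0.19 and -0.33, and a second probe gave -0.04, -0.11, 0.10, 0.09 and -0.40. The next smallest limma adjusted p-values were 0.177 for Mrpl51, 0.201 for Mrpl10, 0.265 for Mrps23 and 0.278 for Mrpl53. Leaving out single arrays gave adjusted p-values of 0.00529 to 0.104 for Mrpl37. It missed the threshold without replicate 2 of either diet at week 2, without replicate 3 of high-fat diet or any normal diet replicate at week 20, and without replicate 1 or 2 of either diet at week 24. The number of members called was 42 with median alignment. That alignment moved the median diet difference of all genes to -0.35 at week 8 and 0.10 at week 24. The number was 0 with the replicate block, without the detection filter, with the macrophage covariate and without the week 24 arrays. Shares of all genes called were not computed under these alternatives. In the full limma fit 3 members had an unadjusted p under 0.05, beside 20.7% of all genes. Without replicate 3 of normal diet at week 20 Mrpl51 passed in place of Mrpl37. Without replicate 1 of the high-fat group at week 8 Mrpl53 passed as well.

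Over the weeks of normal diet, 48 of the 72 members (66.7%) differed among the 6 weeks by limma's F test, beside 66.5% of all genes. They were 33 of 45 large-subunit and 15 of 27 small-subunit genes, and the smallest adjusted p-values were 6.72e-09 for Mrps18c, 3.40e-08 for Mrpl2, 4.65e-07 for Mrpl20, 6.35e-07 for Mrpl13 and 1.21e-06 for Mrpl16. Without the week 24 arrays 9 members passed, against 36.4% of all genes: Mrpl12, Mrpl13, Mrpl16, Mrpl17, Mrpl46, Mrps15, Mrps17, Mrps30 and Mrps34. At week 24 of high-fat diet 20 members were higher and 16 lower than at week 2, or 27.8% and 22.2%, against 28.8% and 22.2% of all genes. At week 24 of normal diet 27 were higher and 13 lower than at week 0, or 37.5% and 18.1%, against 24.1% and 24.2% of all genes. The members' medians were 0.04 on high-fat and 0.13 on normal diet, beside 0.05 and 0.02 for all genes.

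Mrps18c, a paralog of Mrps18a and Mrps18b, fell most on normal diet. Its log2 signals on high-fat diet were 11.02, 11.15 and 11.26 at week 2, 11.19, 11.31 and 11.38 at week 4, 10.65, 11.03 and 11.20 at week 8, 11.23, 10.85 and 11.27 at week 20 and 9.73, 9.73 and 9.85 at week 24. On normal diet they were 11.21, 10.997 and 11.12 at week 0, 11.22, 10.88 and 11.02 at week 2, 11.22, 11.02 and 11.20 at week 4, 11.14, 11.18 and 11.09 at week 8, 11.28, 11.17 and 11.13 at week 20 and 9.89, 9.85 and 10.06 at week 24. All 6 arrays of week 24 lay below all 27 others. The change was -1.37 (SE 0.12, adjusted p = 6.59e-10) on high-fat diet and -1.18 (SE 0.12, adjusted p = 1.41e-08) on normal diet, by limma. Its paralogs did not pass in either diet by their brightest probes. Mrps18a differed by 0.16 (SE 0.11) on high-fat and 0.18 (SE 0.11) on normal diet, and Mrps18b by -0.13 (SE 0.080) and 0.01 (SE 0.080). Dimmer Mrps18b probes, each detected on 33 arrays, gave -0.39 and -0.19 on high-fat diet. On normal diet the same probes gave 0.62 and 0.56.

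Mrpl20, whose bacterial counterpart acts early in assembly of the large subunit, stood at 9.91, 9.77 and 9.89 at week 24 of high-fat diet, against 10.72, 10.74 and 10.72 at week 2. On normal diet it stood at 9.81, 9.79 and 10.11 at week 24, against 11.001, 10.83 and 10.97 at week 0. No array overlapped between the weeks, and the changes were -0.87 (SE 0.13, adjusted p = 3.30e-06) on high-fat and -1.03 (SE 0.13, adjusted p = 3.21e-07) on normal diet, by limma.

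Mrps15, which binds the small-subunit RNA, stood at 7.64, 7.504 and 7.89 at week 24 of high-fat diet, against 9.07, 8.92 and 9.18 at week 2. On normal diet it stood at 7.81, 8.27 and 8.09 at week 24, against 8.76, 8.59 and 8.74 at week 0. The weeks did not overlap in either diet, with changes of -1.38 (SE 0.16, adjusted p = 6.09e-08) and -0.64 (SE 0.16, adjusted p = 0.0015) by limma, and a second probe detected on 27 arrays gave -1.51 and -1.16. At week 20 of normal diet Mrps15 stood at 9.59, 9.23 and 9.05, a difference of 0.59 from week 0. Mrpl53 changed by -0.72 (SE 0.13) on high-fat diet and Mrpl52 by -0.63 (SE 0.18) on normal diet. Mrpl39, a mitochondria-only protein, was detected on 0 of 3 normal diet arrays at week 24 and on all 3 at week 0, which makes it at least 1.29-fold lower (limma adjusted p = 0.0127, measured log2 means 5.77 and 6.42). That bound sets the week 0 mean against the higher, on each week 24 array, of the probe's own signal and the lowest signal among detected probes, and the call was lost without replicate 1 of week 24.

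Mrpl2, a conserved protein near the centre where peptide bonds form, rose most. It stood at 12.81, 12.83 and 12.67 at week 24 of high-fat diet, against 11.83, 11.79 and 11.76 at week 2. On normal diet it stood at 12.65, 12.72 and 12.999 at week 24, against 12.01, 12.03 and 11.85 at week 0. No array of another week reached the week 24 signals, and the changes were 0.98 (SE 0.10, adjusted p = 1.31e-08) on high-fat and 0.83 (SE 0.10, adjusted p = 2.97e-07) on normal diet, by limma.

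Mrps2, a conserved small-subunit protein, stood at 9.31, 9.29 and 9.45 at week 24 of high-fat diet, against 9.07, 8.55 and 8.74 at week 2. On normal diet it stood at 9.56, 9.56 and 9.49 at week 24, against 8.64, 8.77 and 8.90 at week 0, and the changes were 0.57 (SE 0.10) and 0.77 (SE 0.10). Mrps22 stood at 11.42, 11.20 and 11.17 at week 24 of normal diet, against 10.57, 10.505 and 10.59 at week 0. Neither gene overlapped between these weeks, and Mrps22 changed by 0.49 (SE 0.094) on high-fat and 0.71 (SE 0.094) on normal diet. Of the other members with the largest rises, Mrpl57 changed by 0.74 (SE 0.19) on normal diet, and Mrpl1, of a mobile stalk, by 0.81 (SE 0.12) and Mrpl16, near the tRNA sites, by 0.72 (SE 0.11) on high-fat diet.

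Probes of one gene did not always move together. Mrpl13 changed by 0.58 (SE 0.077) on high-fat and 0.59 (SE 0.077) on normal diet by its brighter probe, while a dimmer probe detected on 29 arrays gave -1.72 and -1.74. Among 26 members with several detected probes, the probes differed in sign between these weeks for 14 on high-fat diet (Mrpl3, Mrpl10, Mrpl13, Mrpl15, Mrpl38, Mrpl47, Mrpl48, Mrps10, Mrps11, Mrps12, Mrps23, Mrps25, Mrps31 and Mrps33). On normal diet they differed for 11 (Mrpl1, Mrpl13, Mrpl33, Mrpl38, Mrpl43, Mrpl47, Mrps12, Mrps23, Mrps25, Mrps26 and Mrps33). For the diet difference over 5 weeks they differed for 9 (Mrpl1, Mrpl3, Mrpl13, Mrpl15, Mrpl47, Mrpl51, Mrps12, Mrps23 and Mrps25), and at week 24 for 5 (Mrpl10, Mrpl13, Mrpl15, Mrps5 and Mrps12).

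**Figure D5:**
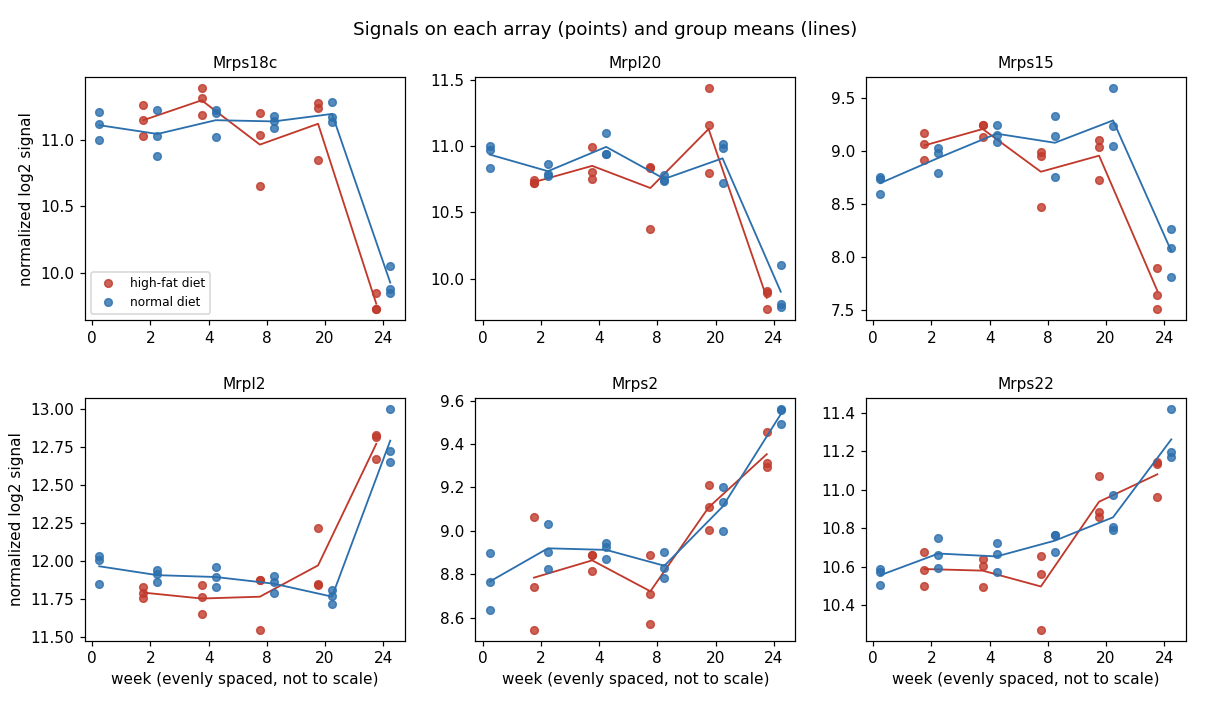
Normalized log2 signal of 6 members on each array (points, high-fat and normal diet in separate colours) with group means joined by lines, over evenly spaced weeks. The group means of Mrps18c, Mrpl20 and Mrps15 are lowest at week 24 in both diets, and those of Mrpl2, Mrps2 and Mrps22 are highest there.

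The week comparisons of the diets share no arrays. Of the members that rose, 15 did so in both diets (75% of the high-fat list and 55.6% of the normal diet list), and of those that fell 11 did so in both (68.8% and 84.6%). Over all genes the shared calls were 50.4% and 60.2% of the higher lists, and 63.8% and 58.5% of the lower lists. With median alignment 46 members rose and 7 fell on high-fat diet, beside 47.5% of all genes higher and 9.91% lower, and 33 rose and 7 fell on normal diet, beside 20.5% and 23.5%. Between week 20 and the start, 7 rose and 2 fell on high-fat diet (12% and 9.26% of all genes), and 6 rose and 11 fell on normal diet (14.8% and 18.4%).

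Markers of other cell types also differed between these weeks, and their part in the member changes was not tested. On high-fat diet 14 of 17 macrophage markers rose and 1 fell by week 24, with means of 9.19 to 9.30 against 7.29 to 7.56 at week 2. Of the white adipocyte markers 6 of 8 rose, at 9.01 to 9.11 against 7.01 to 7.18, and of the fibroblast and matrix markers 8 of 14 rose and 2 fell, at 9.63 to 9.85 against 9.09 to 9.44. The muscle marker mean was 8.72 to 11.37 against 9.52 to 10.76, and 1 of 20 muscle markers fell. On normal diet 16 of 20 muscle markers rose by week 24, at 9.81 to 10.15 against 8.12 to 8.35 at week 0. White adipocyte markers rose in 5 of 8, at 7.99 to 8.29 against 6.77 to 6.92, and macrophage markers rose in 7 of 17 and fell in 3, at 7.54 to 7.78 against 7.27 to 7.34. Endothelial markers fell in 11 of 17 and rose in 1, at 9.65 to 9.77 against 10.06 to 10.32, and fibroblast and matrix markers fell in 8 of 14 and rose in 2.

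With the macrophage mean as a covariate 1 member passed on high-fat diet, and it fell (0.685% of all genes higher and 0.685% lower), while 17 rose and 7 fell on normal diet (16.9% and 18%). The members' medians were then -0.0058 on high-fat and 0.15 on normal diet. With the muscle mean as a covariate 20 members rose and 16 fell on high-fat diet (28.8% and 22.1% of all genes), and 22 rose and 8 fell on normal diet (17.4% and 18.3%).

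Other genes of mitochondrial translation were counted beside the members, from lists of the pathway, and the counts over the 5 weeks stand against 15.4% of all genes higher and 11.7% lower. Over the 5 diet weeks 2 of 14 translation factors passed, and both rose: Tufm, which brings tRNAs to the ribosome, by 0.14 (SE 0.030) and Gfm1, which moves it along the mRNA, by 0.13 (SE 0.043). The mean of the Gfm1 probes gave -0.04. Of 26 ribosome assembly factors 2 rose, the RNA-modifying enzymes Nsun4 (0.10, SE 0.032) and Trub2 (0.14, SE 0.050), and 1 fell, Rpusd3 (-0.23, SE 0.065). Tufm, Nsun4 and Trub2 came to -0.03, -0.03 and -0.0013 with median alignment. The Trub2 call was kept in 26 alternatives and lost in 16 others, most of them with a single array left out. Of 19 genes that charge mitochondrial tRNAs 3 passed, and all rose: Lars2, the leucine enzyme, by 0.27 (SE 0.042), and Qrsl1 by 0.24 (SE 0.046) and Gatb by 0.16 (SE 0.032), subunits of the enzyme that makes glutaminyl-tRNA.

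Of 17 genes for upkeep and transcription of mitochondrial DNA 2 passed, and both fell: the single-strand binding protein Ssbp1 (-0.21, SE 0.058) and the thymidine kinase Tk2 (-0.15, SE 0.044). Of 21 RNA processing genes 1 rose, Fastkd5 (0.18, SE 0.062), and 3 fell, Slirp, which stabilises mitochondrial mRNA (-0.32, SE 0.072), Rexo2, which clears short RNA (-0.24, SE 0.059), and Trit1, a tRNA-modifying enzyme (-0.16, SE 0.052). Of 17 biogenesis regulators 4 rose, Perm1 (0.72, SE 0.077), Nrf1 (0.24, SE 0.040), the ETS factor Gabpa (0.19, SE 0.069) and the coactivator Ppargc1b (0.17, SE 0.057), and 1 fell, Max (-0.40, SE 0.12). Ppargc1a did not pass at 0.22 (SE 0.14), nor did Tfam, which packages mitochondrial DNA, at -0.01 (SE 0.045), the polymerase gene Polrmt at 0.07 (SE 0.042) or Ucp1 at 0.04 (SE 0.048). Of 4 mitochondrial ribosomal proteins under other symbols 1 fell, Chchd1 (-0.14, SE 0.045).

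At week 24 alone, where 7.64% of all genes were lower and 12.7% higher, 2 of 14 translation factors fell, the membrane insertase Oxa1l (-0.42) and Taco1, which acts on Cox1 translation (-0.47). Of 26 assembly factors 3 fell, C1qbp (-0.36), Eral1 (-0.36) and Mettl17 (-0.36), and of 21 RNA processing genes 3 fell, Slirp (-0.58), Rexo2 (-0.43) and Trit1 (-0.34). Among 19 charging genes Wars2 rose (0.48) and Sars2 fell (-0.45). Of 17 genes for mitochondrial DNA 1 fell, Primpol, which primes DNA synthesis (-0.31). Among 17 regulators Nrf1 (0.33) and Perm1 (0.56) rose and Max fell (-0.94).

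The mRNAs that this ribosome reads were measured for 8 of 13 mitochondrially encoded genes, and 0 passed for diet over the 5 weeks in limma, with 1 at an unadjusted p under 0.05. Their mean log2 signal at week 24 was 12.08 to 12.17 on high-fat arrays and 12.00 to 12.16 on normal diet arrays. At the start it was 12.74 to 12.88 at week 2 of high-fat diet and 12.53 to 12.60 at week 0 of normal diet. Relative to those weeks 4 of the 8 fell and 1 rose by week 24 of high-fat diet, and 4 fell by week 24 of normal diet. Across the 11 group means the members' median pairwise correlation was 0.28 over 2556 pairs, 64.9% of them positive. This is a description only, since the genes were measured on the same arrays and scaled together.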

How the data were processed

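RNA from 33 samples in 11 groups of 3 was measured on Illumina bead arrays. The deposited table gave, for each probe and array, an intensity, not normalized as its unequal array medians show, and a detection p-value; BeadStudio 3.1.3 is named in the submitters' processing notes. The authors also deposited log2 values of the same arrays, whose columns share one distribution, used as an alternative. Intensities were background-corrected with normexp from negative controls inferred from detection p (offset 16), quantile normalized and put on the log2 scale with limma 3.58.1 in R 4.3.3. Symbols came from the platform annotation: of 45281 probes 34885 had 1 symbol, 18 several and 10378 none. Probes needed detection p under 0.01 on at least 3 arrays, and the brightest stood for its gene, which left 9630 genes.

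One limma model with a mean per group and all 33 arrays was fitted, with empirical Bayes moderation (22 residual degrees of freedom). Tests were two-sided, and p-values were adjusted by Benjamini-Hochberg over all 9630 genes, with calls at 0.05. The members, gene lists and tests were chosen with earlier results of these data known. Named members were the 8 with the largest called difference in each direction over the 5 weeks, up to 3 in each direction at a single week, the 4 largest in each direction between weeks, the 5 smallest p-values of each F test, members whose probes differed in sign, and a set with known roles whatever their values. From each other pathway list up to 3 genes with the smallest p were named, and Ucp1, Tfam, Ppargc1a and Polrmt always. Other called genes were named after their values were seen, because they passed. The procedure was run on simulated data with independent noise for each gene and array, so shifts shared by genes were not simulated. At week 24 it recovered 0%, 18%, 52% and 90% of differences of 0.2, 0.3, 0.6 and 1 log2 units. Over the 5 weeks it recovered 40%, 82%, 98% and 100%. False calls were 2.44% of the calls at week 24 and 5.88% over the 5 weeks. The simulated data gave 82 calls at week 24 and 170 over the 5 weeks. The measured data gave 1224 higher and 736 lower at week 24, and 1486 and 1123 over the 5 weeks. The adjusted threshold depends on how many genes change, so these recovery rates need not hold for the measured data. No 2 arrays held identical values, and within-group correlations were 0.977 to 0.996. After group means were subtracted, same-numbered replicates of the diets correlated at -0.11 to 0.133 over 15 pairs. At week 24 each pair correlated best with its own number (0.036, 0.124 and 0.133). Such values can neither show nor exclude a pairing by number, and the main fit used none. Slide and scan date are not given in the sources used here. Alternatives changed the normalization, the filter, the probe rule, the covariates, the weeks and the arrays used.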

Additional observations from a re-analysis of the deposited data

Results flagged for a closer look

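Mrpl37 was singled out because its diet difference varied among the weeks by a test of the interaction (limma F test, adjusted p = 0.0334). High-fat minus normal diet was 0.19 at week 20 and -0.33 at week 24 on the log2 scale. Leaving out single arrays gave adjusted p-values of 0.00529 to 0.104. The members called for this interaction numbered 42 with median alignment, and 0 with the replicate block, without the detection filter, with the macrophage covariate and without week 24. Shares of all genes called under these alternatives were not computed.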

How the results depend on the processing

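Of 669 single-member results under alternatives other than leaving out arrays, 593 stayed on the same side of the threshold, 52 lost the call, 14 gained one and 10 reversed. A reversal was counted only where the main fit or the alternative gave a call. Uncalled differences among the 593 could therefore change sign, and F-test results have no direction. With median alignment the members called lower were 70 at week 8, 8 at week 24 and 58 over the 5 weeks, beside 49.3%, 3.72% and 25.6% of all genes. The interaction gave 42, with no share of all genes computed here or under the alternatives below. Under median alignment the 5-week differences of Mrpl28 (-0.045), Mrpl10 (-0.038), Mrpl12 (-0.12), Mrps34 (-0.13), Tufm (-0.030), Nsun4 (-0.032) and Trub2 (-0.0013) reversed. Week 20 gave 3 calls there, all lower (3.24% of all genes), against 2 higher. The authors' values gave 1 call at week 20, higher, beside 3.48% of all genes higher and 1.96% lower. Without the detection filter there was 1 at week 20, higher (1.09% of all genes higher and 0.546% lower). Week 24 then gave 7, all lower (6.08% and 3.22%), and the interaction 0. The mean of probes gave 1 at week 20, higher (2.75% of all genes higher and 1.89% lower), and 2 for the interaction. It turned Mrpl13 on high-fat diet to -0.57 and Gfm1 to -0.035. Array weights gave 3 at week 2, 1 higher and 2 lower (3.1% of all genes higher and 2.86% lower). They gave 1 lower at week 4 (2.76% and 2.38%) and 5 for the interaction. At week 24 they gave 26, 1 higher and 25 lower (18% and 12.9%). The macrophage covariate gave 1 at week 20, higher (2.39% of all genes higher and 1.23% lower), and 0 at week 24 (0.0104% and 0%). It gave 24 for normal diet week 24 against week 0 (16.9% and 18%). It gave 1 for high-fat week 24 against week 2 (0.685% and 0.685%). Over the 5 weeks it gave 0 (1.28% and 0.696%), and for the interaction 0. The arrays of a week alone gave 0 at week 20 (0.228% of all genes higher and 0.135% lower). At week 24 they gave 8, all lower (11.3% and 6.54%). Without week 24 there were 4 calls over the remaining weeks, 0 for the interaction and 9 for normal diet weeks, and without week 8, chosen after seeing the data, 2 for the interaction. Week 20 in place of week 24 gave 9 calls on high-fat diet, 7 higher and 2 lower (12% and 9.26% of all genes). On normal diet it gave 17, 6 higher and 11 lower (14.8% and 18.4%). Mrpl20 then came to 0.40 on high-fat diet, and Mrpl2 to -0.20, Mrps18c to 0.084, Mrpl39 to 0.26 and Mrps15 to 0.59 on normal diet. The cause of these changes was not tested. With the replicate block the interaction gave 0 calls and week 24 gave 11 lower (7.24% of all genes). Normal diet week 24 against week 0 gave 39 (23.8% of all genes higher and 23.9% lower) and normal diet weeks 46. The other counts were as without the block. Of 15 pairs 5 correlated best with their own number, among them all 3 of week 24. Leaving out single arrays gave 0 to 0 calls at week 2, 0 to 0 at week 4, 0 to 2 at week 8, 0 to 3 at week 20, 3 to 13 at week 24, 14 to 25 over the 5 weeks, 0 to 2 for the interaction, 39 to 48 for normal diet weeks, 33 to 39 for high-fat week 24 against week 2 and 32 to 39 for normal diet week 24 against week 0. Shares of all genes moved as well, such as 4.38% lower at week 24 without replicate 1 of normal diet, against 7.64% with all arrays. Signal over background limits Mrpl39, which was not detected in 1 group.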
